A study of Homo sapiens with 6 samples.

Results

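HIF1A and 9 genes known as targets of hypoxia-inducible factor (HIF) were followed in cells exposed to methylglyoxal (MGO), a reactive dicarbonyl that forms as a by-product of glycolysis. The members were VEGFA, ADM, ANKRD37, BNIP3, BNIP3L, EGLN1, EGLN3, NDRG1, P4HA1 and HIF1A itself, chosen by gene symbol, and all 10 were found among the 63643 genes of the deposited count table. All libraries came from HEK293T, an established human embryonic kidney line, with the glyoxalase gene GLO1 deleted, so that Control cells carry the deletion as well. The MGO group (3 libraries) received 60 µM MGO for 4 h, and the Control group (3 libraries) was left untreated. The labels do not state whether the deleted line is a single clone, nor the oxygen level of the cultures. Names of the MGO libraries carry a number that is not this dose, which the labels leave unexplained.

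HIF is a pair of transcription factor subunits, an alpha subunit such as HIF1A and a stable partner, ARNT. In the presence of oxygen the prolyl hydroxylases of the EGLN family mark the alpha subunit, the VHL ubiquitin ligase recognises the mark, and the protein is destroyed, so HIF1A is known to be controlled mainly at the level of protein and not of mRNA. When oxygen is low the alpha subunit persists and raises genes for blood vessel growth, glycolysis, mitochondrial turnover and collagen modification, together with EGLN1 and EGLN3, which form a feedback loop. Several of these targets are also known to respond to other stress pathways, and RNA abundance alone does not measure HIF protein.

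HIF binds DNA at a short core, ACGTG or GCGTG. The windows below show 250 bases before to 50 bases after the annotated start of 3 members that rose after MGO (ADM, ANKRD37, BNIP3) and of 1 that was lowered (EGLN3). Sequences are from RefSeq (GRCh38.p14), 5′ to 3′ on the strand of the gene, and capitals mark the cores ACGTG and GCGTG on either strand.
ADM promoter, chr11:10304823-10305122, plus strand: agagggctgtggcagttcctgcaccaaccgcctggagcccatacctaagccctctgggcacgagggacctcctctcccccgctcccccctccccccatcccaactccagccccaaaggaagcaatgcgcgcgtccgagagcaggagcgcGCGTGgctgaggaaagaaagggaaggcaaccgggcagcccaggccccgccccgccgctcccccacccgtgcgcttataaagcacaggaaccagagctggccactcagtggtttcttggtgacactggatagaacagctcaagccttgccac
ANKRD37 promoter, chr4:185396591-185396890, plus strand: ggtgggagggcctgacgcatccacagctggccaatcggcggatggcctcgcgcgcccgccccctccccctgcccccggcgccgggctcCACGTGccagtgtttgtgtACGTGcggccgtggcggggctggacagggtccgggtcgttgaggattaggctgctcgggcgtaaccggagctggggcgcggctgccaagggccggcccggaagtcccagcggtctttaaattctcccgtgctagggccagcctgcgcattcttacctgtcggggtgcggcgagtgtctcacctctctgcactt
BNIP3 promoter, chr10:131981874-131982173, minus strand: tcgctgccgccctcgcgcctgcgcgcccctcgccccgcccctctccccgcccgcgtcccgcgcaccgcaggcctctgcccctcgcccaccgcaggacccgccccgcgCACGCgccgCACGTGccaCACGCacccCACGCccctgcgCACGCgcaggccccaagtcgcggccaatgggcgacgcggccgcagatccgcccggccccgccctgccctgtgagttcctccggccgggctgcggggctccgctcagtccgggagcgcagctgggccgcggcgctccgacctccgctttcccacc
EGLN3 promoter, chr14:33951025-33951324, minus strand: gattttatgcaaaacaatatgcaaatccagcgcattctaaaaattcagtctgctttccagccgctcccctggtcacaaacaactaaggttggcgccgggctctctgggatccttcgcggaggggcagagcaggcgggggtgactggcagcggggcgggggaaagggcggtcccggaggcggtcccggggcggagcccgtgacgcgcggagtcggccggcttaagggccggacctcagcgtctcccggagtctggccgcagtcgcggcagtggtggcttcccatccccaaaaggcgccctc
The ADM window held 1 core, the ANKRD37 window 3, the BNIP3 window 6 and the EGLN3 window none, where the cores within a CACGTG, which reads the same on both strands, count once per strand. Of the 7 members with a window in the RefSeq table, EGLN1 and P4HA1 had 1 core each and HIF1A had 1 core in 1 of its 2 windows. Either core is common, since 48.4% of all 35116 windows of this length held at least 1, and ACGTG alone was in 21.4%. The AP-1 motif TGANTCA, searched on both strands, was in no window of these members and in 7.71% of all windows. These matches describe the letters and are not evidence of binding.

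GLO1 had 106, 102 and 97.3 CPM (counts scaled to library size) in the MGO libraries and 37.6, 36.3 and 37.9 CPM in the Control libraries. Its log2 fold change was 1.45. Since the deleted stretch is not described, reads counted on GLO1 are no check of the deletion. Libraries held 128270160 to 138680220 counts (MGO) and 117427883 to 157639431 counts (Control). All 6 markers fixed for this line (VIM, NEFL, NEFM, PAX2, KRT8, KRT18) were detected, with a summed level of 1924 to 2171 CPM in MGO and 854 to 909 CPM in Control, and 3 of them rose and 3 fell. Blood cell markers (5 genes) summed to 0.445 to 0.809 CPM in MGO and 0.175 to 0.301 in Control, and endothelial markers (5 genes, EMCN at 0) to 0.0442 to 0.0785 in MGO and 0.253 to 0.299 in Control. Fibroblast markers (5 genes, 3 of them under 1 CPM in every library) summed to 5.31 to 5.80 CPM in MGO and 14.3 to 15.5 in Control. Their part in the results was not tested.

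Of the 10 genes, 6 rose after MGO (ADM, ANKRD37, VEGFA, BNIP3, P4HA1 and NDRG1), 2 fell (EGLN3 and HIF1A) and EGLN1 and BNIP3L missed the threshold, by edgeR's quasi-likelihood test at a Benjamini-Hochberg adjusted p under 0.05 over 23109 genes tested. Of all genes tested, 79.3% changed in either direction, 38.8% rose and 40.5% fell, so 8 changed genes of 10 is near the background. In bulk RNA of this kind, fewer cells of a type and less RNA per cell cannot be told apart. The median log2 fold change was 0.24 over the 10 genes and −0.02 over all genes tested. A change beyond 2-fold was seen for 3 of the 10, all of them rises (ADM, ANKRD37, VEGFA), while 20.9% of all genes tested rose and 25.8% fell by as much. The groups did not overlap for 8 of the 10 genes, with 6 higher and 2 lower in MGO. Over all genes, 81.5% did not overlap, 39.7% with MGO higher and 41.8% with MGO lower. Counts depended on the scaling. Library size alone shifted the all-gene median log2 value by −0.52, and 3 of the 10 then rose and 6 fell, against 24.5% and 55.8% of all genes (80.3% either way). Upper quartile scaling shifted it by 0.17 and gave 6 raised and 0 lowered, against 43.8% and 36.0% (79.8% either way).

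**Figure D1:**
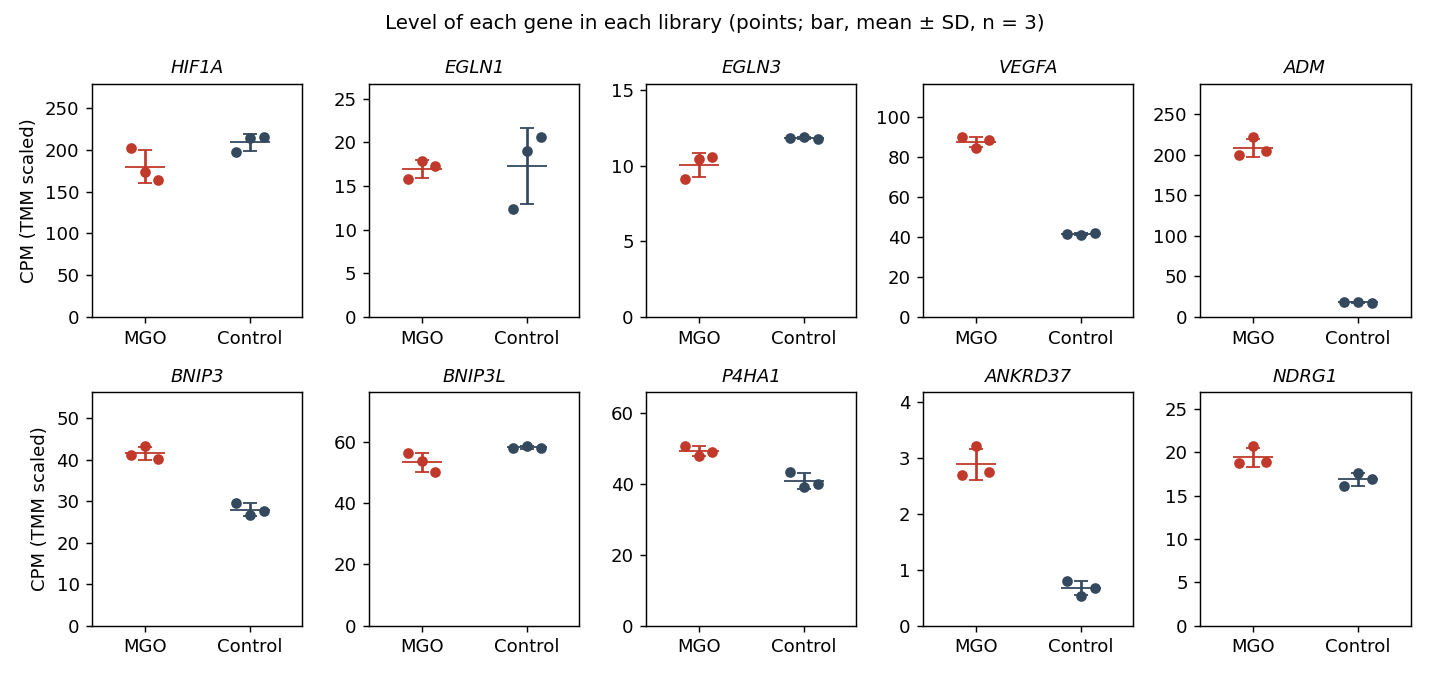
Level of each of the 10 genes in CPM (TMM scaled, linear axes from 0) in the 3 MGO and 3 Control libraries; points are libraries in replicate order, and bars give mean ± SD. ADM, VEGFA and ANKRD37 separate the groups most, with means of 208, 87.4 and 2.88 CPM in MGO against 18.0, 41.4 and 0.669 CPM in Control, and Control replicate 1 lies low for EGLN1 at 12.4 CPM.

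Fold changes in these libraries followed transcript length. The median log2 fold change was 0.47 for the 5430 genes tested with a median transcript of 1000 to 2000 nt, of which 55.0% rose. It was −1.45 for the 2260 genes of 5000 nt or more, of which 82.8% fell. The members range from 1116 nt (VEGFA) to 7097 nt (EGLN1), so their changes are also given with a per-library trend removed. That trend, on GC content, gene span and transcript length, is called the length trend here. The fit without it called 9 of the 10 raised and 1 lowered, against 35.7% and 42.4% of all genes (78.1% either way). With the longest transcript of each gene in place of the median, a choice added after the data were seen, it called 8 raised and 0 lowered, against 34.2% and 44.0% (78.2% either way).

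**Figure D2:**
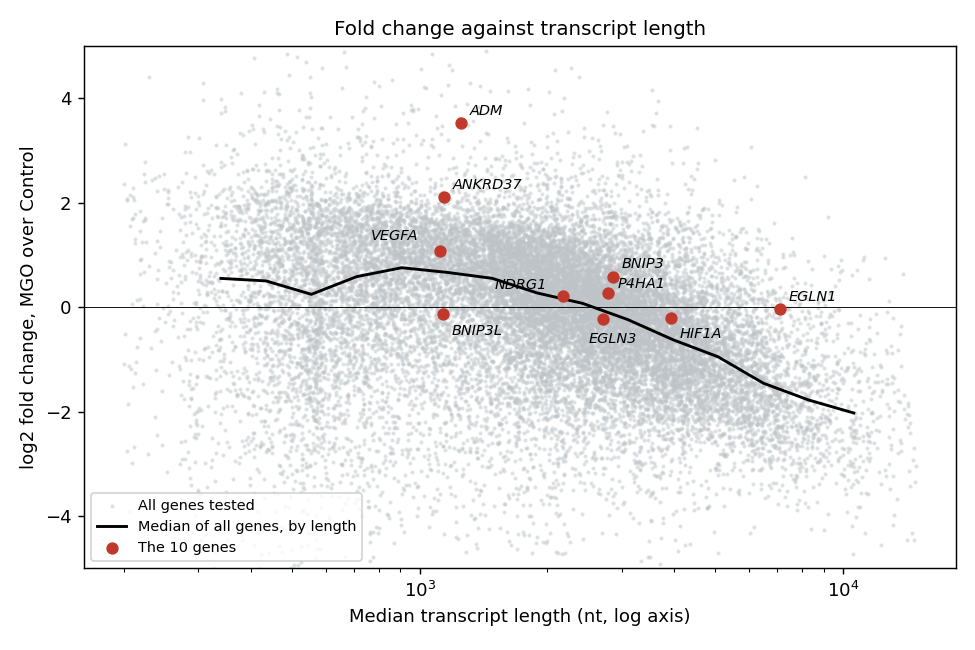
Log2 fold change of MGO over Control against median transcript length (nt, log axis) for 21175 genes tested (grey), with their median by length (black line) and the 10 genes (red). ADM at 3.53 and ANKRD37 at 2.11 stand above the line, VEGFA at 1.08 is nearer to it, and EGLN1, with 7097 nt, lies near 0 where the median of genes of that length is well below 0.

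Both secreted signals among the 10 rose, ADM the most of all 10. ADM encodes adrenomedullin, a peptide that relaxes blood vessels and protects the endothelial barrier. It is on chromosome 11 (10304680 to 10307397, GRCh38, GENCODE 29). It had 199.6, 221 and 204 CPM in the MGO libraries, against 18.3, 18.2 and 17.6 CPM in the Control libraries. Every MGO library was far above every Control library, and the within-group coefficient of variation was 5.41% in MGO and 2.16% in Control. ADM rose 11.6-fold, by 3.53 on the log2 scale (SE 0.07; edgeR adjusted p = 8.48e-12). Only 0.554% of the genes tested had a higher fold change. It ranged from 2.78 to 3.71 over the 17 alternatives, and the lowest value came with the length trend removed.

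VEGFA, the main growth factor for blood vessels, is on chromosome 6 (43770184 to 43786487). It had 89.6, 84.6 and 88.1 CPM in MGO libraries, against 41.2, 40.9 and 41.9 CPM in Control libraries. The groups were far apart relative to their spread, and the log2 fold change was 1.08 (SE 0.06, edgeR adjusted p = 3.83e-09), or 2.11-fold. Of all genes tested, 19.0% rose by more. Its rise shrank to 0.55 with library size alone and to 0.27 (edgeR adjusted p = 0.00256) with the length trend removed. That fit takes the median length of its 24 basic transcripts. With the longest transcript instead, VEGFA was at 0.96 (edgeR adjusted p = 8.29e-09). Within a library, ADM reads exceeded VEGFA reads in MGO, with log2 ratios of 1.16, 1.39 and 1.21, while VEGFA reads exceeded ADM reads in Control, with log2 ratios of −1.17, −1.17 and −1.26. This ratio does not depend on scaling between libraries but does carry the length trend. After removal of that trend ADM was at 2.78 and VEGFA at 0.27, and with the longest transcript at 2.95 and 0.96. The ratio differed by 2.45 between MGO and Control. Its exact two-sided permutation p was 0.1, the smallest that 3 against 3 libraries allow (0.15 after adjustment over 3 ratios).

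Neither oxygen sensor was called raised under TMM scaling. With the length trend removed both were, and with the longest transcript only EGLN1 was (1.07, edgeR adjusted p = 1.28e-05). EGLN3 (PHD3) is on chromosome 14 (33924231 to 34462774), and EGLN1 (PHD2), the hydroxylase that sets HIF1A levels in most cells, is on chromosome 1 (231363751 to 231425044). EGLN3 had 9.10, 10.5 and 10.5 CPM in MGO libraries, against 11.8, 11.9 and 11.7 CPM in Control libraries. All MGO libraries were lower, by a small margin (log2 fold change −0.23, SE 0.08; adjusted p = 0.0146 by edgeR). The sign of EGLN3 turned to 0.34 (adjusted p = 0.000741 by edgeR) with the length trend removed. Its call ended at −0.06 (edgeR adjusted p = 0.498) under upper quartile scaling and at −0.13 (edgeR adjusted p = 0.0745) with the longest transcript. The length trend also takes the annotated gene span, which for EGLN3 is 538544 nt and overlaps the gene SPTSSA. What part the span has in the turned sign was not tested.

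EGLN1 had 15.8, 17.9 and 17.2 CPM in MGO libraries, against 12.4, 19.0 and 20.5 CPM in Control libraries. Control replicate 1 lay below all MGO libraries and the other 2 Control libraries above them, so the groups overlapped, at 17.0 ± 1.04 CPM in MGO and 17.3 ± 4.33 CPM in Control (SD, n = 3 each). The log2 fold change was −0.03 (95% interval −0.35 to 0.29, edgeR adjusted p = 0.855), which does not show that the level was the same. Without Control replicate 1 it was −0.22 (edgeR adjusted p = 0.027). Removal of the length trend gave 1.32 (edgeR adjusted p = 1.12e-06). In log2 terms EGLN1 in Control replicate 1 was 0.65 below the mean of the other 2 Control libraries, and 23 of 14239 genes with a mean of at least 1 CPM were as low or lower. That library also ran low for long transcripts in general, with a median of −0.14 for genes of 5000 nt or more and 0.06 below 1000 nt. What part that has in the EGLN1 value was not tested. The EGLN3/EGLN1 ratio carried the same feature, with log2 values of −0.80, −0.77 and −0.71 in MGO and −0.07, −0.68 and −0.81 in Control. The difference of −0.24 (exact two-sided permutation p = 0.5) became −0.015 without Control replicate 1. This ratio carries the length trend. After removal of that trend EGLN3 was at 0.34 and EGLN1 at 1.32, and with the longest transcript they were at −0.13 and 1.07.

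HIF1A, the oxygen-regulated subunit, is on chromosome 14 (61695513 to 61748259). It had 203, 173 and 164 CPM in MGO libraries, against 198, 215 and 215 CPM in Control libraries. MGO replicate 1 lay within the Control range and the other 2 MGO libraries below it. HIF1A fell by 0.22 on the log2 scale (SE 0.08; adjusted p = 0.0269 by edgeR). The call ended without MGO replicate 2 (adjusted p = 0.0858 by edgeR), MGO replicate 3 (0.125), Control replicate 2 (0.0749) or Control replicate 3 (0.08). It ended under upper quartile scaling too (−0.04), and the sign turned to 0.48 with the length trend removed and to 0.19 with the longest transcript.

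**Figure D3:**
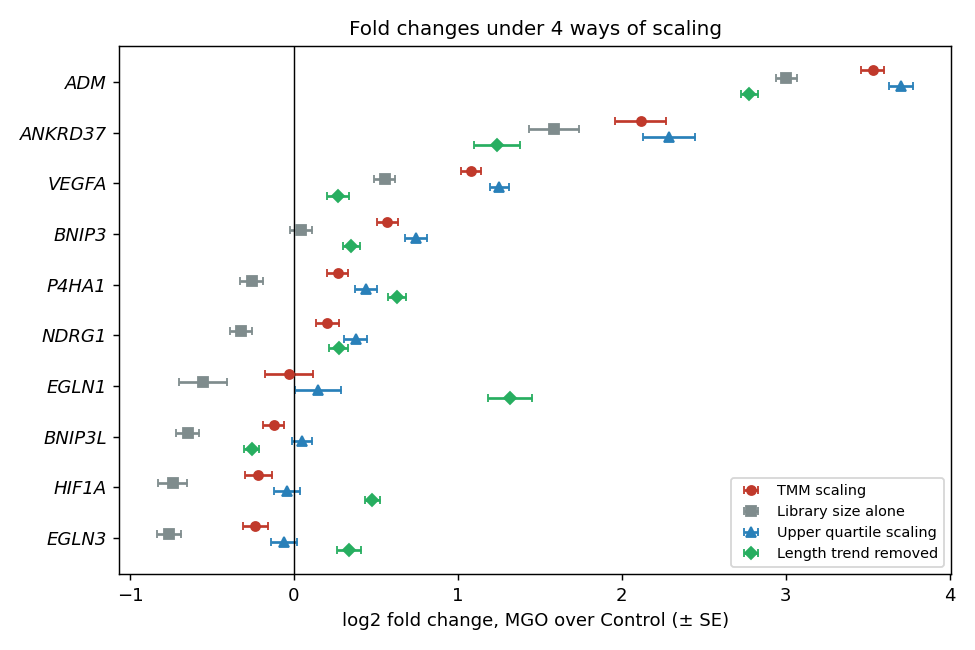
Log2 fold change of MGO over Control (± SE) of the 10 genes under TMM scaling, library size alone, upper quartile scaling and with the length trend removed. ADM, ANKRD37 and VEGFA stay above 0 in all 4, from 0.27 for VEGFA to 3.71 for ADM. BNIP3 does too, but only by 0.04 with library size alone, while HIF1A, EGLN1, EGLN3, BNIP3L, P4HA1 and NDRG1 change sign.

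BNIP3 and BNIP3L (NIX) are related proteins of the outer mitochondrial membrane that recruit the autophagy machinery and so mark mitochondria for removal. BNIP3 (chromosome 10, 131966455 to 131982013) had 41.2, 43.2 and 40.2 CPM in MGO libraries, against 29.6, 26.6 and 27.7 CPM in Control libraries. It rose 1.49-fold (0.57 on the log2 scale, SE 0.07; adjusted p = 5.3e-06 by edgeR) with no overlap of the groups. The call ended with library size alone (0.04, edgeR adjusted p = 0.563) and, for the length trend by the longest transcript, at 0.07 (edgeR adjusted p = 0.216). Its 39 pseudogene copies had at most 3.45% as many reads as BNIP3 in any library.

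BNIP3L (chromosome 8, 26382898 to 26505636) had 56.3, 53.9 and 50.2 CPM in MGO libraries, against 58.1, 58.7 and 58.0 CPM in Control libraries. The MGO libraries were all slightly lower, and the change missed the threshold (log2 fold change −0.12, 95% interval −0.26 to 0.01, edgeR adjusted p = 0.09). It passed as lowered without MGO replicate 1 (−0.16, edgeR adjusted p = 0.00933), with library size alone (−0.65, edgeR adjusted p = 4.52e-06) and after removal of the length trend (−0.26, edgeR adjusted p = 0.000127). Its sign turned to 0.05 under upper quartile scaling and to 0.27 with the longest transcript. The opposite-strand gene SDAD1P1 shares exon bases with BNIP3L and had at most 4.17% of its count. The log2 ratio of BNIP3 to BNIP3L reads was −0.45, −0.32 and −0.32 in MGO libraries and −0.97, −1.14 and −1.07 in Control libraries. The groups did not overlap, and the mean difference was 0.70 (exact two-sided permutation p = 0.1, the smallest possible, and 0.15 adjusted over 3 ratios). Leaving out any library kept it between 0.66 and 0.74. The ratio carries the length trend, however: with the longest transcript BNIP3 was at 0.07 and BNIP3L at 0.27, the opposite order, and with the median length they were at 0.35 and −0.26.

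**Figure D4:**
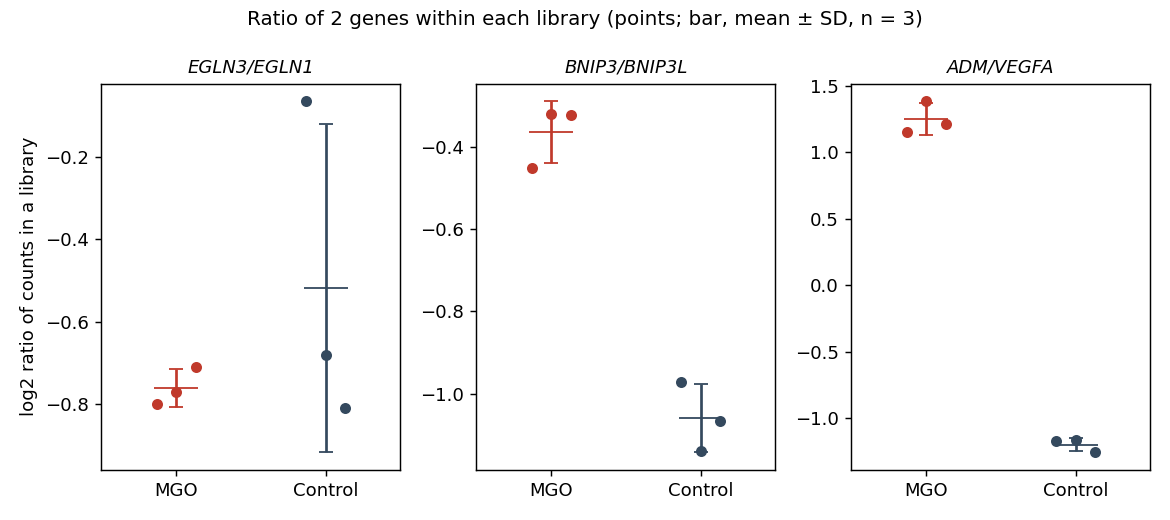
Log2 ratio of the counts of 2 genes in the same library, for EGLN3/EGLN1, BNIP3/BNIP3L and ADM/VEGFA, in 3 MGO and 3 Control libraries; bars give mean ± SD. ADM/VEGFA lies at 1.25 ± 0.12 in MGO and −1.20 ± 0.05 in Control, BNIP3/BNIP3L at −0.36 ± 0.075 in MGO and −1.06 ± 0.08 in Control, and for EGLN3/EGLN1 Control replicate 1 stands alone at −0.07.

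The remaining members differed in size of change. ANKRD37, a small ankyrin repeat protein (chromosome 4, 185396021 to 185400628), had 296, 362 and 314 counts in MGO libraries, against 113, 101 and 118 counts in Control libraries. Scaled, this was 2.69, 3.20 and 2.74 CPM in MGO and 0.793, 0.534 and 0.679 CPM in Control, so the gene stayed low while all MGO libraries lay above all Control libraries. The log2 fold change was 2.11 (SE 0.15, edgeR adjusted p = 5.59e-08), a 4.33-fold rise, and 3.76% of the genes tested had a higher one. It was 1.24 with the length trend removed and 1.15 with the longest transcript. UFSP2 overlaps it on the opposite strand without shared exon bases in the basic annotation, and the strand setting of the counting was not stated. UFSP2 had 4987, 5100 and 4718 counts in MGO libraries and 2386, 2918 and 2797 counts in Control libraries. Whether any of its reads were counted on ANKRD37 was not tested.

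P4HA1 encodes the catalytic subunit of the prolyl hydroxylase that stabilises collagen (chromosome 10, 73007217 to 73096974). It had 50.6, 47.8 and 49.0 CPM in MGO libraries, against 43.2, 39.1 and 40.1 CPM in Control libraries. The rise was 1.20-fold (log2 fold change 0.27, SE 0.06, edgeR adjusted p = 0.00198), and its sign turned to −0.26 with library size alone. P4HA1 was at 0.63 with the length trend removed and at 0.26 with the longest transcript. NDRG1, a stress-responsive protein of growth arrest and differentiation (chromosome 8, 133237171 to 133302022), had 18.7, 20.7 and 18.8 CPM in MGO libraries, against 16.1, 17.6 and 16.9 CPM in Control libraries. The groups were close but did not overlap (log2 fold change 0.20, SE 0.07; adjusted p = 0.0194 by edgeR). Its call ended without MGO replicate 2 (adjusted p = 0.0782 by edgeR), Control replicate 1 (0.0689) or Control replicate 3 (0.071). The sign turned to −0.32 with library size alone. NDRG1 was at 0.27 with the length trend removed and at 0.60 with the longest transcript.

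Per kilobase of the longest annotated transcript, the order of levels changed at the top. In MGO libraries ADM stood highest at 110.3 CPM per kb, then HIF1A at 45.5, VEGFA at 24.7 and P4HA1 at 17.3. In Control libraries HIF1A stood highest at 52.9 CPM per kb, then BNIP3L at 16.1, P4HA1 at 14.3 and VEGFA at 11.7, with ADM at 9.54 in the 6th place. Neighbours such as BNIP3L (14.8) and BNIP3 (14.5) in MGO, or BNIP3 (9.78) and ADM (9.54) in Control, had overlapping libraries. ANKRD37 and EGLN1 were the lowest of the 10 in both groups, at 2.52 and 2.39 CPM per kb in MGO and 0.586 and 2.44 in Control.

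Genes that build and restrain HIF formed a separate list. Of 15 tested genes among 16 subunits, oxygen sensors and cofactors, 7 rose and 8 fell, where 38.8% of all genes rose and 40.5% fell. Their median was −0.23 on the log2 scale. With the length trend removed 10 rose and 3 fell (35.7% and 42.4% of all genes), and the median was 0.66. By the rule for named genes these are ELOB and SIAH1 among the rises and VHL and ARNT2 among the falls, and the others in the next 2 paragraphs were added after their values were seen. HIF3A had too few reads to be tested.

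The other tested subunits also fell. EPAS1 (HIF2A), the other main alpha subunit, averaged 26.9 ± 0.769 CPM in MGO and 62.0 ± 2.98 CPM in Control (SD, n = 3 each; log2 fold change −1.20, SE 0.06). With the length trend removed EPAS1 was at −0.00, and with the longest transcript it was still called lowered, at −0.31 (edgeR adjusted p = 2.02e-05). The partner ARNT averaged 29.3 ± 2.86 CPM in MGO and 61.9 ± 2.75 in Control (−1.08, SE 0.08), and its relative ARNT2 averaged 9.78 ± 0.735 CPM in MGO and 49.5 ± 4.02 in Control (−2.34, SE 0.08). Both stayed below 0 with the length trend removed, at −0.55 for ARNT and −1.09 for ARNT2. The coactivator genes EP300 and CREBBP, with transcripts of 9587 and 9200.5 nt, fell by 0.94 and 1.54 on the log2 scale, and their signs turned to 0.81 and 0.31 with the length trend removed. CITED2, which competes with HIF for these coactivators, rose by 0.99 (SE 0.07), to 146 ± 13.6 CPM in MGO, against 73.8 ± 1.51 in Control. CITED2 stood at 0.40 with the length trend removed, at 0.53 with the longest transcript and at 0.46 with library size alone.

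VHL, which recognises hydroxylated HIF, averaged 24.7 ± 0.271 CPM in MGO and 78.1 ± 0.444 CPM in Control (SD, n = 3 each). It fell with no overlap of the groups (log2 fold change −1.66, SE 0.06, edgeR adjusted p = 1.49e-10), and it was −1.75 with the length trend removed. Of the other parts of the VHL ligase, ELOB rose by 2.04, ELOC by 1.44 and RBX1 by 1.41, while the scaffold CUL2 fell slightly (−0.23). ELOB, ELOC and RBX1 have shorter transcripts than VHL and stood at 1.07, 0.99 and 0.70 with the length trend removed. The CUL2 call ended under upper quartile scaling (−0.05) and without MGO replicate 2 (−0.19), MGO replicate 3 (−0.17) or Control replicate 3 (−0.22), and its sign turned to 0.70 with the length trend removed. SIAH1, of a ubiquitin ligase family known to degrade EGLN3, rose by 1.56 (SE 0.07; 1.76 with the length trend removed) and SIAH2 by 0.90. The third prolyl hydroxylase, EGLN2, rose by 0.86 (SE 0.14), with MGO replicate 1 at 37.5 CPM above the other MGO libraries at 23.9 and 27.1 CPM and Control libraries at 17.7, 15.6 and 15.5 CPM. The EGLN2 call ended with library size alone (0.34, edgeR adjusted p = 0.0596) and after removal of the length trend (0.34, edgeR adjusted p = 0.0769). HIF1AN, the asparaginyl hydroxylase of HIF, fell by 0.75 and its sign turned to 0.80 with the length trend removed.

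**Figure D5:**
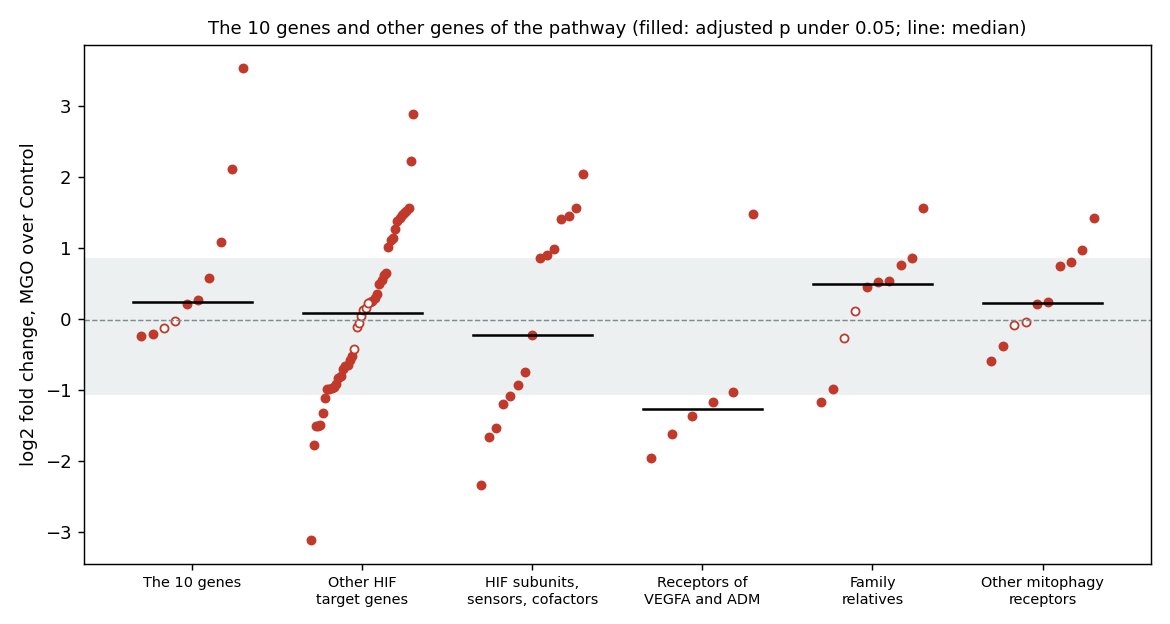
Log2 fold change of MGO over Control of each tested gene of the 10 and of 5 related lists, ordered by size within a list; filled points passed an adjusted p under 0.05, black lines are medians, the grey band runs from −1.05 to 0.85 (the quartiles of all genes tested) and the dashed line is their median. The 10 genes reach highest with ADM at 3.53, and PPFIA4, at −3.12, lies lowest among the other HIF target genes.

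Under TMM scaling other known HIF targets rose and fell in shares near those of all genes, 38.8% and 40.5%. Of 48 listed, 46 were tested, of which 20 rose and 19 fell while 7 missed the threshold. Their median was 0.08, and library size alone gave 12 raised and 30 lowered with a median of −0.44 (24.5% and 55.8% of all genes). With the length trend removed 24 rose and 18 fell, against 35.7% and 42.4% of all genes, and the median was 0.16. With the longest transcript 24 rose and 19 fell, against 34.2% and 44.0%, and the median was 0.21. JMJD6, an oxygen-dependent lysyl hydroxylase, had 209, 221 and 203 CPM in MGO libraries, against 46.8, 44.6 and 44.7 CPM in Control libraries (log2 fold change 2.22, SE 0.06; edgeR adjusted p = 4.83e-11). With the length trend removed JMJD6 stood at 2.24. Among genes averaging at least 1 CPM the largest falls were those of PPFIA4, a liprin scaffold gene, at −3.12 (SE 0.17; 6349 nt), and of KDM4B, an oxygen-dependent histone demethylase, at −1.51 (SE 0.08; 5310 nt), and with the length trend removed they stood at −1.91 and −0.11. The others were named after their values were seen. Among genes of glucose uptake and use, SLC2A1 (1.47), ENO1 (1.38) and PGK1 (0.65) rose under TMM scaling. TPI1, ALDOA, ALDOC, SLC2A3 and PFKFB4 rose as well. HK2 fell (−0.65), while PFKFB3 and PDK1 missed the threshold. Values of these genes with the length trend removed are not reported here. The demethylase genes KDM3A and KDM4C were at 0.13 (edgeR adjusted p = 0.297) and −0.67. KDM3A was called raised under upper quartile scaling (0.30) and with the length trend removed (0.997, and 0.74 with the longest transcript), and called lowered with library size alone (−0.39), while KDM4C turned to 0.19 with the length trend removed. Among enzymes of collagen modification, PLOD2 and LOX fell, by 1.32 and 0.99. P4HA2 was at 0.04 (edgeR adjusted p = 0.586), was called raised under upper quartile scaling (0.22) and with the length trend removed (0.35), and was called lowered with library size alone (−0.49). CA9 and LDHA were not tested for want of reads. Most cells use LDHA, and it had 3, 0 and 5 counts in MGO and 0, 0 and 0 in Control libraries, so a value near 0 in this table is not read as absent expression.

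Receptors for the secreted signals fell in 5 of 6 tested cases under TMM scaling, where 40.5% of all genes fell. With the length trend removed 4 of 6 fell (42.4% of all genes), and with the longest transcript 1 of 6 (44.0%). The VEGF receptors and co-receptors FLT1 (−1.03), KDR (−1.63), NRP1 (−1.17) and NRP2 (−1.37) and the adrenomedullin receptor CALCRL (−1.95) fell, while RAMP2, the accessory protein that gives CALCRL its adrenomedullin specificity, rose by 1.47. With the longest transcript the median of the 6 was −0.10, against −1.27 under TMM scaling, since FLT1 turned to 0.32 and the calls of NRP1 (−0.08), NRP2 (−0.13) and CALCRL (−0.74) ended. With the median length FLT1 (−0.79), NRP2 (−0.72), KDR (−0.52) and NRP1 (−0.13) stayed lowered, while the CALCRL call ended there too (−0.54). The median of the 6 was then −0.53. RAMP2 stood at 0.49 in both length fits. KDR stood at 0.315 ± 0.0906 CPM in MGO and 0.97 ± 0.119 in Control, and CALCRL at 0.0206 ± 0.0131 CPM in MGO and 0.0821 ± 0.0105 in Control (SD, n = 3 each). CALCRL had only 1, 2 and 4 counts in MGO libraries and 10, 17 and 15 in Control libraries. RAMP3 had too few reads to be tested.

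Family relatives of the members gave 6 rises and 2 falls among 10 tested (38.8% and 40.5% of all genes), and 3 rises and 4 falls with library size alone (24.5% and 55.8%). PGF, a placental member of the VEGF family, rose by 1.57 (SE 0.10), VEGFB by 0.85 and VEGFC by 0.52, which turned to −0.01 with library size alone, and VEGFD was at −0.27 (edgeR adjusted p = 0.421). The VEGFB call ended with the length trend removed (0.03, edgeR adjusted p = 0.582). VEGFD was called lowered with library size alone (−0.80) and with the longest transcript (−0.85). ADM2, the peptide related to adrenomedullin, fell by 1.17 (SE 0.14), to 1.36 ± 0.0707 CPM in MGO, against 3.04 ± 0.504 in Control, and so went the other way from ADM. NDRG2 rose by 0.45 with its sign turned to −0.07 by library size alone, NDRG3 was at 0.11 (edgeR adjusted p = 0.19) and NDRG4 fell by 0.98. NDRG3 was called raised under upper quartile scaling (0.28), with the length trend removed (0.63) and without MGO replicate 1 (0.17), and turned to −0.42 with library size alone. P4HB, the partner of P4HA1 in collagen prolyl hydroxylase, rose by 0.76, and P4HA3 by 0.53 at under 1 CPM. The P4HB call ended with the length trend removed (0.07, edgeR adjusted p = 0.142), and the P4HA3 call with library size alone (0.0042, edgeR adjusted p = 0.982) and with the longest transcript (0.34, edgeR adjusted p = 0.0877).

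Other mitophagy receptors and adaptors also gave 6 raised and 2 lowered of 10 (38.8% and 40.5% of all genes), and 4 raised and 6 lowered with library size alone (24.5% and 55.8%). The receptors PHB2 (1.43), FKBP8 (0.97), FUNDC1 (0.80) and BCL2L13 (0.24) rose, as did the kinase gene PINK1 (0.75) and the adaptor CALCOCO2 (0.20). FUNDC1 turned to −0.04 (edgeR adjusted p = 0.395) with the length trend removed. With the longest transcript FUNDC1 was called lowered (−0.28, edgeR adjusted p = 2.34e-05). CALCOCO2 turned to −0.25 with the length trend removed and to −0.32 with library size alone, and BCL2L13 to −0.28 with library size alone. The CALCOCO2 call ended without Control replicate 2 (0.18, edgeR adjusted p = 0.0502). The adaptors TAX1BP1 and NBR1 fell by 0.39 and 0.60, TAX1BP1 turning to 0.08 with the length trend removed, and OPTN was at −0.05 (edgeR adjusted p = 0.454). The NBR1 call ended with the longest transcript (−0.09, edgeR adjusted p = 0.138). OPTN was called lowered with library size alone (−0.58) and turned to 0.27 with the length trend removed. BNIP3, at 0.57, lay within the range of these receptors, and the difference between BNIP3 and any of them was not tested.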

How the data were processed

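Polyadenylated RNA of 6 libraries (3 MGO, 3 Control) was sequenced, per the labels' protocols, from 500 ng of total RNA in stranded libraries. The table was deposited as raw counts, 1 value per gene and library. The submitters' processing notes name Trim Galore 0.6.10, STAR 2.7.0a, featureCounts 2.0.6, DESeq2 1.42.0 and hg38. Annotation, strand setting and treatment of multiply matched reads were not stated. No label says that replicates are separate cultures, so p-values reflect only the spread of these samples, possibly technical. No 2 libraries of a group agreed within sampling noise (lowest chi-square 3.77 per degree of freedom).

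All genes were fitted in R 4.3.3 with edgeR 4.0.16 (filterByExpr, TMM, quasi-likelihood test of MGO against Control, Benjamini-Hochberg adjustment over 23109 genes, threshold 0.05). The test was checked on simulated data in which few genes changed, as many up as down and with no length trend. That check therefore cannot speak to the scaling between libraries or the length trend. CPM used TMM-scaled library sizes, and SE was taken as the fold change (log2) over √F. No spike-in is named, so all changes are relative. Coordinates, lengths and GC content came from GENCODE 29 (56845 genes matched). The length trend was removed with spline offsets (5 degrees of freedom per term). Alternatives were 3 other scalings, 2 other filters, DESeq2, limma-voom 3.58.1, robust dispersions, 2 length fits, a block on replicate number, and each library left out in turn. Named genes were the 10 members, GLO1, from each list the top 2 rises and top 2 falls that passed at a mean of 1 CPM or more, and every tested gene of lists of up to 10. Items that the rule names but the text leaves out are not reported here. Members and lists were chosen with earlier results of these data known.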

Additional observations from a re-analysis of the deposited data

How the results depend on the processing

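ADM, VEGFA and ANKRD37 kept their direction and their call under all 17 alternatives. Over the 10 members, 138 of 170 values kept both, 13 lost the call, 6 gained it and 13 changed sign. With library size alone 5673 genes rose in all, 3 members rose and 6 fell. Members that fell numbered 0 under upper quartile scaling, 1 with the length trend removed, 0 with the longest transcript, and 1 to 3 when 1 library was left out. Changed signs, whose cause beyond the shift of the scale or the length term was not tested, were as follows. With library size alone they were NDRG1 (−0.32), P4HA1 (−0.26), VEGFC (−0.0073), NDRG2 (−0.073), NDRG3 (−0.42), BCL2L13 (−0.28), CALCOCO2 (−0.32), P4HA2 (−0.49) and KDM3A (−0.39). Under upper quartile scaling they were BNIP3L (0.050), EGLN1 (0.15) and OPTN (0.12). With the length trend removed they were HIF1A (0.48), EGLN1 (1.32), EGLN3 (0.34), FUNDC1 (−0.038), OPTN (0.27), CALCOCO2 (−0.25), TAX1BP1 (0.084), HIF1AN (0.80), CUL2 (0.70), EP300 (0.81), CREBBP (0.31) and KDM4C (0.19). With the longest transcript they were HIF1A (0.19), BNIP3L (0.27), EGLN1 (1.07), FLT1 (0.32), FUNDC1 (−0.28), HIF1AN (0.60), CUL2 (0.41), EP300 (0.57), CREBBP (0.15) and KDM4C (0.13). Leaving out 1 library turned EGLN1 (−0.22 to 0.11), KDM3A (−0.040 to 0.22) and P4HA2 (−0.010 to 0.084). BNIP3L passed the threshold also with a minimum mean of 1 CPM (−0.16, edgeR adjusted p = 0.0281), and NDRG1 lost it without a filter (edgeR adjusted p = 0.0692).

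Same-numbered libraries did not deviate together (correlations of 0.04, 0.02 and 0.01 between MGO and Control libraries of the same number), so the numbers are treated as names. A replicate block gave 8869 raised and 9299 lowered genes and left 6 members raised and 2 lowered. The block cannot change the differences of the log2 ratios, since every replicate number is in both groups. They stayed at −0.24 for EGLN3/EGLN1, 0.70 for BNIP3/BNIP3L and 2.45 for ADM/VEGFA. Leaving out 1 library gave −0.39 to −0.015, 0.66 to 0.74 and 2.38 to 2.50 for these ratios. With 3 libraries a group, changes as small as those of HIF1A, EGLN3 and NDRG1 are near the limit of what could be called.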
